A study of Mus musculus with 2 samples.

Results

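The genes described here encode 10 exchangeable subunits of the BAF (mammalian SWI/SNF) chromatin remodelling complexes, 10 of the 43346 Ensembl genes quantified in embryonic mouse forebrain. They were chosen by their names in GENCODE mouse release M21 and fall into 3 groups by known role. Actl6a, Phf10 and Ss18 are the progenitor subunits. Actl6b, Dpf1, Dpf3 and Ss18l1 are the neuronal subunits. Dpf2 and the ATPases Smarca4 and Smarca2 belong to neither group. The names and not a threshold on any level set this choice.

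The tissue was forebrain of healthy embryos of the B6NCrl strain, of both sexes, at embryonic day 11.5, with no treatment, transgene or mutation named. Replicate 1 pooled forebrains of 109 embryos and replicate 2 those of 88 embryos, each collected separately. Total RNA-seq libraries were made from 10 ng of RNA longer than 200 nucleotides, so mature microRNAs were not measured. With a single group of 2 libraries, no comparison between conditions exists, and each value below is given for replicate 1 and then replicate 2, with mean ± SD (n = 2).

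BAF complexes use the energy of ATP to slide or evict nucleosomes and so open or close regulatory DNA. In the mouse nervous system, dividing neural progenitors and postmitotic neurons are known to carry different versions of several subunits. As a cell leaves the cycle, Actl6a, Phf10 and Ss18 are exchanged for Actl6b, for Dpf1 or Dpf3, and for Ss18l1. The exchange of the actin-related subunit is known to involve miR-9-3p (formerly called miR-9*) and miR-124, which repress Actl6a, while the repressor REST holds these microRNAs down in non-neuronal cells.

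Levels are in TPM, a share of all transcripts that is scaled by depth and divided by transcript length, so that genes can be compared with each other. At 1 TPM or more in both libraries, 10 of the 10 members were detected, against 58.6% of the 21474 protein-coding genes. At a minimum of 5 TPM, for which no share of all genes is given here, 9 of 10 were detected, and Dpf3 was the exception. The libraries held 23165260 and 33597028 expected counts on Ensembl genes, so that 1 library was deeper than the other and the counts below are not comparable without scaling. Where a 95% interval is given for a ratio, it is an exact Clopper-Pearson interval for counting error only. A forebrain at this stage mixes dividing and postmitotic cells, and fewer cells of a type and less RNA per cell cannot be told apart in bulk tissue.

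Actl6a was the highest of the 10 genes. It encodes an actin-related subunit that stimulates the ATPase, and it also belongs to the INO80 and TIP60 complexes. Its gene (ENSMUSG00000027671.10, chr3:32706298-32726973, plus strand, GRCm38) had 218 TPM in replicate 1 and 223 TPM in replicate 2, or 220.4 ± 3.10 TPM. This placed it at the 97.1 and 97.2 percentile of protein-coding genes. The values rested on 6008 and 8593 expected counts. The libraries lay close together, with a log2 ratio of replicate 1 over replicate 2 of 0.01 (95% interval -0.04 to 0.06).

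The letters of miR-9-3p and of the match to its seed in Actl6a are shown because this microRNA is known to repress Actl6a in the exchange. The mature microRNA is from RefSeq (GRCm38.p6), 5′ to 3′, with the seed, bases 2 to 8, in capitals. Below it stands the single stretch of the Actl6a-201 3′ untranslated region (GENCODE M21, chr3:32726640-32726646, plus strand) that holds AGCTTTA, the complement of that seed, in capitals.
miR-9-3p: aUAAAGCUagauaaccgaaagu
Actl6a-201: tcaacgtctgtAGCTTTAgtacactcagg
The match begins at base 38 of an untranslated region of 371 bases. Of the members' longest 3′ untranslated regions, searched on the transcript strand only, that of Smarca2 (Smarca2-220, 952 bases) held the same letters 1 time, at base 132 (chr19:26777502-26777508, plus strand), and the other 8 held none.
Smarca2-220: catctagaactAGCTTTAgggtagtgcca
Among all genes, 2359 of 20983 longest 3′ untranslated regions (11.2%) held AGCTTTA. Among the 1778 whose length was within 20% of that of Actl6a the share was 2.42% (43 genes). A match of letters is no measurement of binding or of repression.

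Host transcripts of these microRNAs are long enough to be counted. C130071C03Rik, the long noncoding RNA whose locus holds Mir9-2 (the letters of miR-9-3p lie at chr13:83738858-83738879), had 44.1 and 43.2 TPM, or 43.7 ± 0.672 TPM. The same letters also lie in Mir9-1 (chr3:88215652-88215673) and Mir9-3 (chr7:79505318-79505339), outside that locus, and host transcripts of these are not given here. Mir124a-1hg, a host gene of miR-124, had 22.7 and 21.98 TPM, or 22.3 ± 0.488 TPM. C130071C03Rik and Mir124a-1hg were therefore both transcribed in the tissue in which Actl6a stood at 220.4 TPM, and neither value gives the amount of mature microRNA. Rest, which encodes the repressor of neuronal genes, had 19.6 and 20.0 TPM (19.8 ± 0.290 TPM). Rcor1, which encodes the CoREST corepressor that REST recruits, had 12.7 and 11.2 TPM (11.9 ± 1.03 TPM). Ptbp1, a splicing repressor of progenitors whose own exchange for Ptbp2 depends on miR-124, had 206 and 232 TPM (218.8 ± 18.3 TPM). Ptbp2, its neuronal relative, had 203 and 217 TPM (209.8 ± 9.62 TPM). Ptbp1 was thus the higher of the pair in both libraries. The authors' credibility intervals of the pair overlapped in replicate 1 and were separate in replicate 2.

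Ss18 was the second of the progenitor subunits by level. It encodes a subunit that binds the ATPase module and is the fusion partner altered in human synovial sarcoma. It had 78.2 and 79.5 TPM (78.8 ± 0.948 TPM) on 3544 and 5247 expected counts. Phf10 was the lowest of the group. It encodes a subunit with paired PHD fingers, a fold that reads histone tails, and it is also found in the PBAF form of the complex. Its gene (ENSMUSG00000023883.9, chr17:14945009-14961273, minus strand) had 29.0 and 26.7 TPM (27.8 ± 1.62 TPM) on 870 and 1151 expected counts. The progenitor subunits thus spanned 27.8 to 220.4 TPM, and their libraries did not overlap with one another.

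Among the neuronal subunits, Dpf1 stood highest. It encodes a relative of Phf10 with the same kind of paired PHD fingers. Its gene (ENSMUSG00000030584.9, chr7:29303951-29318243, plus strand) had 67.7 and 58.3 TPM (63.0 ± 6.68 TPM) on 1507 and 1928 expected counts. Scaled for depth, it was higher in replicate 1, with a log2 ratio of 0.17 whose counting interval (0.08 to 0.27) did not include 0. Actl6b encodes the actin-related subunit of postmitotic neurons, which is needed for dendrite growth in mice. It (ENSMUSG00000029712.10, chr5:137553517-137569582, plus strand) had 17.2 and 15.7 TPM (16.5 ± 1.07 TPM) on 350 and 438 expected counts. Ss18l1, also called CREST, encodes a transactivator that responds to calcium in neurons. It (ENSMUSG00000039086.9, chr2:180042509-180070201, plus strand) had 13.3 and 14.1 TPM (13.7 ± 0.523 TPM) on 864 and 1318 expected counts.

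Dpf3 was the lowest member. It encodes a subunit that reads acetylated histones and is known for its role in heart and skeletal muscle. Its gene (ENSMUSG00000021221.11, chr12:83213745-83487716, minus strand) had 3.62 and 3.46 TPM (3.54 ± 0.113 TPM), on 78 and 83 expected counts. Its level lay at the 49.2 and 49.0 percentile of protein-coding genes. The scales differ, since TPM also divide by a transcript length estimated in each library, for Dpf3 1408 bases in replicate 1 and 1084 in replicate 2. The TPM were nearly equal, while counts scaled for depth were 1.35-fold higher in replicate 1 (log2 ratio 0.44, interval -0.03 to 0.90). Of 6 striated muscle markers, which summed to 9.96 and 8.46 TPM, 1 reached 1 TPM in both libraries, Mylpf at 8.18 TPM on average, while the next highest, Actc1 and Myh7, averaged 0.615 and 0.16 TPM.

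Of the members outside both groups, Dpf2 had the highest level. It encodes the broadly expressed relative of Dpf1 and Dpf3. Its gene (ENSMUSG00000024826.10, chr19:5896516-5913010, minus strand) had 183 and 165 TPM (174 ± 12.3 TPM) on 4936 and 6920 expected counts. Smarca4 encodes BRG1, an ATPase required for neural progenitors to renew in mice. Its gene (ENSMUSG00000032187.12, chr9:21616169-21704230, plus strand) had 156 and 151 TPM (153 ± 3.56 TPM) on 13405 and 18642 expected counts, the most reads of any member. Smarca2 encodes BRM, the alternative ATPase. Its gene (ENSMUSG00000024921.12, chr19:26605050-26778322, plus strand) had 42.0 and 41.8 TPM (41.9 ± 0.127 TPM) on 1031 and 1530 expected counts.

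**Figure D1:**
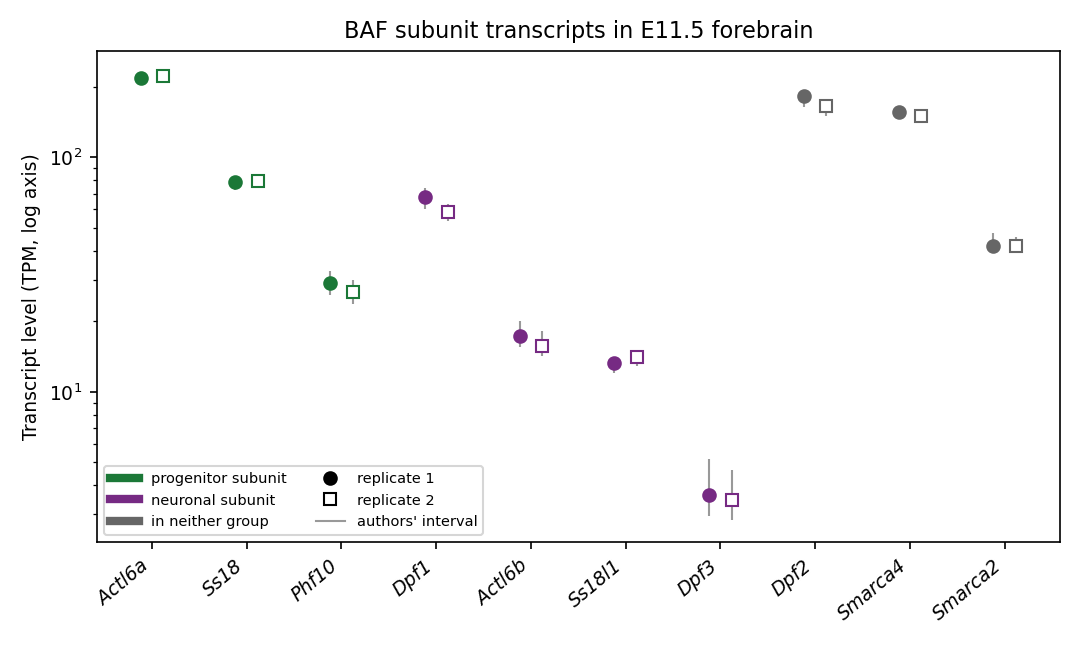
TPM of the 10 BAF subunit genes in the 2 forebrain libraries on a log axis, grouped as progenitor, neuronal and other subunits, with filled circles for replicate 1, open squares for replicate 2 and grey lines for the authors' credibility interval. Actl6a stands highest at 220.4 TPM on average and Dpf3 lowest at 3.54 TPM, and each pair of libraries lies close together on this scale.

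The order of mean levels was Actl6a, Dpf2, Smarca4, Ss18, Dpf1, Smarca2, Phf10, Actl6b, Ss18l1 and Dpf3. In 9 of the 9 neighbouring pairs the libraries of the higher gene lay above those of the lower one. The authors' credibility intervals, whose level the files do not state, were separate in 7 of the 9 pairs. They overlapped in at least 1 library for Ss18 and Dpf1, whose means were 15.8 TPM apart, and for Actl6b and Ss18l1, whose means were 2.79 TPM apart. The order also depends on the transcripts counted. With protein-coding transcripts only, Dpf2 (71.7 TPM) stood below Smarca4 (153 TPM) and Ss18 (78.8 TPM), and Phf10 (15.02 ± 3.30 TPM) and Actl6b (15.045 ± 2.33 TPM) did not differ beyond their SD. The plot of levels also shows that a deposited TPM can lie outside its interval, as for Smarca4 in replicate 1, because the interval belongs to a separate posterior estimate.

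The comparison the choice of genes implies is that of the progenitor with the neuronal version of each subunit. The summed TPM of the 3 progenitor subunits was 325 in replicate 1 and 329 in replicate 2 (327 ± 2.43), and that of the 4 neuronal subunits was 102 and 91.5 (96.7 ± 7.34). The progenitor sum was therefore 3.19 and 3.59 times the neuronal sum. Most of each sum came from a single gene, with Actl6a at 218 and 223 TPM and Dpf1 at 67.7 and 58.3 TPM. On the log2(TPM + 1) scale the median progenitor subunit was at 6.31 and 6.33, the median neuronal subunit at 4.01 and 3.99, and the median of all protein-coding genes at 2.32 and 2.29. The difference of the medians, 2.29 and 2.34 (2.32 ± 0.0358), was far larger than the spread between the libraries. No test was made, since an exact test over 2 libraries cannot reach significance.

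The actin-related pair leaned furthest to the progenitor side. Actl6a exceeded Actl6b by a log2 ratio of 3.66 in replicate 1 (95% interval 3.51 to 3.82) and 3.82 in replicate 2 (3.69 to 3.97). This is 13.4 ± 1.06-fold, so Actl6a held 93.0 ± 0.513% of the TPM of the pair. The SS18 pair leaned the same way by less. Ss18 exceeded Ss18l1 by a log2 ratio of 2.55 (2.45 to 2.66) and 2.50 (2.41 to 2.59), or 5.77 ± 0.151-fold, and held 85.2 ± 0.331% of the pair. The intervals of these pairs lay apart in both libraries.

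The paired PHD finger subunits went the other way. The log2 ratio of Phf10 over the sum of Dpf1 and Dpf3 was -1.30 in replicate 1 (-1.42 to -1.18) and -1.21 in replicate 2 (-1.32 to -1.11). Phf10 was thus 0.419 ± 0.0184 times that sum. Dpf1 made up most of the sum: Phf10 over Dpf1 gave a log2 ratio of -1.23 and -1.13, whereas Phf10 over Dpf3 gave 2.97 ± 0.0379 (2.07 with protein-coding transcripts only, 3.96 with complete ones and 3.64 from counts not divided by length). Counting protein-coding transcripts only, the ratio of Phf10 over the sum of Dpf1 and Dpf3 was -2.06 on the log2 scale, further to the neuronal side.

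Dpf2 exceeded every other member of its family. Its log2 ratio over Dpf1 was 1.47 ± 0.0511 (2.76-fold on average), and over Dpf3 it was 5.62 ± 0.0559 (49.1-fold). Both depend on the transcripts counted. With protein-coding transcripts only, the log2 ratio of Dpf2 was 0.30 over Dpf1 and 4.34 over Dpf3, and with complete ones only it was 0.85 and 6.24. Of the 268 ± 20.7 TPM of the 4 genes, Dpf2 held 64.8 ± 0.422%, Dpf1 23.5 ± 0.679%, Phf10 10.4 ± 0.197% and Dpf3 1.32 ± 0.0598%. Counting protein-coding transcripts only, Dpf2 held 48.3 ± 4.42% and Dpf1 39.2 ± 2.24%, with Dpf2 at 71.7 ± 5.93 TPM and Dpf1 at 58.3 ± 3.85 TPM.

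For the ATPases, Smarca4 exceeded Smarca2 by a log2 ratio of 1.89 (1.80 to 1.98) and 1.85 (1.77 to 1.93), or 3.66 ± 0.0738-fold. This value depends on which transcripts are counted. It was 3.65 on the log2 scale from expected counts not divided by length, 2.65 with protein-coding transcripts only, and 3.42 with complete protein-coding transcripts only, an alternative chosen after the data were seen. Smarca4 was the higher ATPase under each of these definitions.

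**Figure D2:**
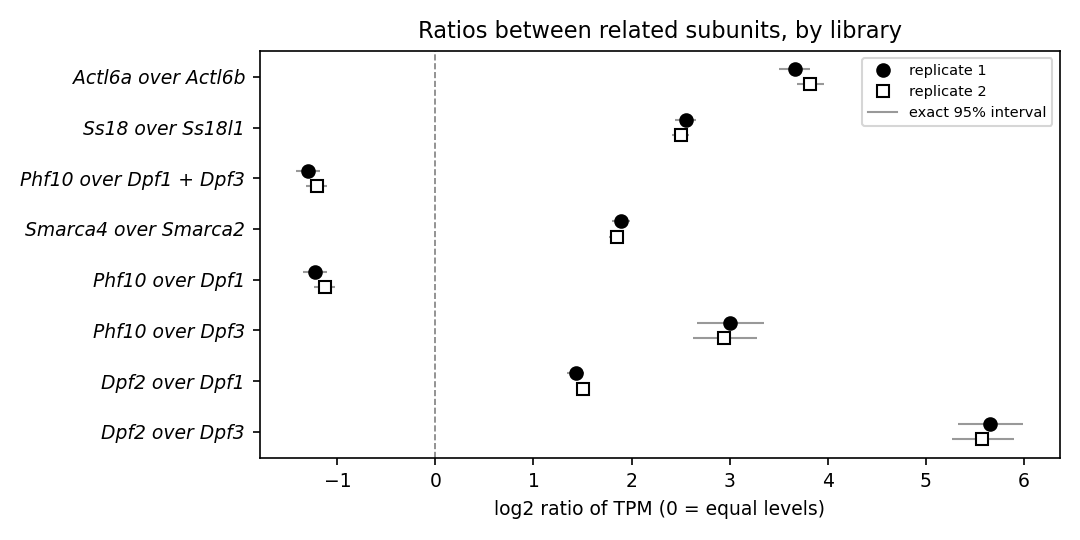
Log2 ratio of TPM between related BAF subunits in each library, with filled circles for replicate 1, open squares for replicate 2 and grey lines for the exact 95% interval of counting error. Ratios right of the dashed line at 0 mean that the first-named gene was higher, as for Actl6a over Actl6b at 3.74 on average, and those of Phf10 over Dpf1 and over the sum of Dpf1 and Dpf3 lie to its left.

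Transcripts of the same gene were also quantified, 73 in all for the 10 members. Shares below are a transcript's percent of its gene's TPM. Because TPM divide by length, a short incomplete transcript can take a large share from few reads. Ss18l1 and Ss18 were the simplest. Ss18l1-201, with 402 codons, held 100% of its gene. Ss18-203, with 387 codons, held 86.4 ± 3.27% and Ss18-201, with 418 codons, 7.63 ± 4.83%. In the actin-related pair the full-length form also led: Actl6a-201 (429 codons) held 87.3 and 80.0% (83.6 ± 5.15%) and Actl6b-205 (426 codons) 81.1 ± 5.75%. Their leading noncoding forms both retain an intron, namely Actl6a-204 at 6.77 ± 4.50% and Actl6b-206 at 7.55 ± 6.25%.

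In Phf10 the coding form held a smaller share. Phf10-201 (497 codons) held 59.9 and 47.6% (53.7 ± 8.72%). Phf10-203, annotated as a target of nonsense-mediated decay (the pathway that removes transcripts with an early stop codon), held 27.5 ± 2.69%. By expected counts their order was reversed in both libraries, with Phf10-203 at 49.5 and 57.3% and Phf10-201 at 47.7 and 38.1%. In Dpf1 the full-length Dpf1-201 (388 codons) held 54.3 ± 2.03%, and the incomplete models Dpf1-209 and Dpf1-207 held 17.1 ± 2.85% and 12.3 ± 0.316%. Its noncoding form with the highest mean TPM, Dpf1-205, was at 4.58 and 1.82%, close to Dpf1-206 with a retained intron, at 4.86 and 1.37%. In Dpf3 the incomplete models Dpf3-202 and Dpf3-203 held 37.3 ± 1.51% and 34.8 ± 9.42%, and the complete models Dpf3-207 and Dpf3-206 held 17.0 ± 11.9% and 10.2 ± 0.0951%. No Dpf3 transcript had more than 43 expected counts in a library, so these shares are poorly determined.

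Dpf2 had coding transcripts with and without a 42-base exon, which adds 14 codons in frame. The exon lies at chr19:5903731-5903772 on the minus strand (GRCm38). The letters are shown because they define the alternative: the exon is in capitals between 12 bases of each neighbouring exon, read from the GENCODE M21 transcripts 5′ to 3′.
Dpf2-202: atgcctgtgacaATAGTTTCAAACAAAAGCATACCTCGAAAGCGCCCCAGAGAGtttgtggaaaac
Dpf2-205: atgcctgtgacatttgtggaaaac
Transcripts with the exon (Dpf2-202, 405 codons) had 60.2 and 68.8 TPM (64.5 ± 6.10 TPM). Transcripts without it (Dpf2-201 and Dpf2-205) had 76.0 and 61.6 TPM (68.8 ± 10.2 TPM). The exon was thus present in 44.2 and 52.8% (48.5 ± 6.08%) of the TPM of these 3 transcripts, and which form led differed between the libraries. Most of the form without the exon came from Dpf2-201, a model annotated for nonsense-mediated decay and incomplete at its 5′ end, at 35.3 ± 3.29% of the gene. The coding Dpf2-205 (391 codons) held 4.16 ± 0.200%, Dpf2-202 37.3 ± 6.14%, and Dpf2-208, a processed transcript of 314 bases, 13.6 ± 5.27%.

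Smarca4 was divided between a pair of full-length forms. Smarca4-204 (1613 codons) had 100 and 103 TPM, or 66.5 ± 2.71% of the gene, and Smarca4-202 (1617 codons) had 54.1 and 46.7 TPM, or 32.9 ± 2.64%. They differ by 9 bases at chr9:21686013-21686021 and by 3 bases at chr9:21699800-21699802, both on the plus strand. The stretches that Smarca4-202 has and Smarca4-204 lacks are shown in capitals, first the 9 bases and then the 3 bases, between 12 bases on either side.
Smarca4-202, 9 bases: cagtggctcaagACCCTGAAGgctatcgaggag
Smarca4-204, 9 bases: cagtggctcaaggctatcgaggag
Smarca4-202, 3 bases: gtacaaagacagCAGcagtggacgtca
Smarca4-204, 3 bases: gtacaaagacagcagtggacgtca
Transcripts with the 9 bases (Smarca4-202 and Smarca4-203) had 55.2 and 47.7 TPM, against 100 and 103 TPM without them (Smarca4-201 and Smarca4-204). The 9 bases were thus present in 35.5 and 31.6% of Smarca4 TPM, and the 3 bases in 35.0 and 31.2% of the TPM of the transcripts that span them, which leaves out Smarca4-203. In both libraries the form without either stretch was the more abundant.

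Most of the Smarca2 level came from transcripts other than the full-length one. Of its TPM, 36.5 ± 1.68% came from Smarca2-215, a model annotated for nonsense-mediated decay and incomplete at its 5′ end. The short coding Smarca2-203 (236 codons) held 12.1 ± 2.20%, the incomplete Smarca2-207 10.6 ± 0.796%, and the full-length Smarca2-201 (1583 codons, 33 exons) 9.87 ± 0.604%. Smarca2-203 begins at base 26748403 of chromosome 19, in the 3′ part of the gene. Classes, codons and positions are those of M21, and each of these models was quantified at another length. The quantified and M21 lengths were 1460 and 2018 bases for Smarca2-215, 1858 and 1962 for Smarca2-203, 494 and 692 for Smarca2-207, and 5858 and 5921 for Smarca2-201. The 4 transcripts with a coding sequence over 3000 bases had 4.65 and 4.88 TPM in sum (4.77 ± 0.163 TPM), which was 11.1 and 11.7% of the gene's TPM but 39.8 and 40.7% of its expected counts. The other 15 transcripts had 37.3 and 36.9 TPM. Smarca4 transcripts with a coding sequence over 3000 bases had 156 and 151 TPM, 33.5 and 30.9 times those of Smarca2.

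**Figure D3:**
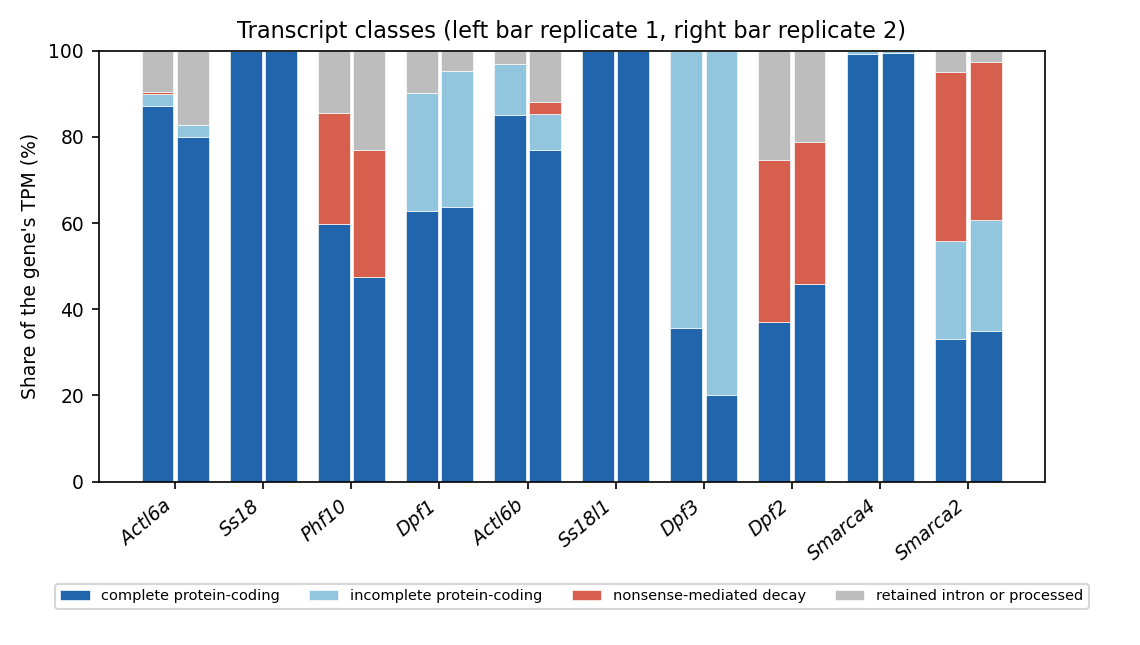
Percent of each BAF subunit gene's TPM by transcript class of GENCODE M21, stacked to 100%, with the left bar of each gene for replicate 1 and the right bar for replicate 2. Complete protein-coding transcripts (dark blue) hold nearly all of Smarca4, Ss18 and Ss18l1, but on average 33.9% of Smarca2, 41.5% of Dpf2 and 27.9% of Dpf3, and the libraries differ most visibly in Phf10, Dpf2 and Dpf3.

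By class, complete protein-coding transcripts held 63.3 ± 0.527% of Dpf1, 41.5 ± 6.34% of Dpf2, 27.9 ± 10.9% of Dpf3, 33.9 ± 1.29% of Smarca2 and 99.4 ± 0.0634% of Smarca4. Exons of several members overlap genes of the opposite strand, whose reads cannot be told apart if strand was not used in counting. The longest overlaps were 470 of 4914 exon bases of Phf10 with 1600012H06Rik (25.4 and 23.0 TPM) and 452 of 3886 exon bases of Actl6a with Mrpl47 (31.6 and 34.2 TPM). The effect of these overlaps on the members' levels was not tested.

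The other 18 BAF subunits, listed by name, give the scale of the complex. All 18 reached 1 TPM in both libraries, against 58.6% of the protein-coding genes. At 5 TPM the count was 17, with no share of all genes beside it. Of the core subunits, Smarcb1 and Smarce1 stood near Actl6a and Dpf2, while Smarcc1 and Smarcc2 stood lower. Smarcb1, which contacts the nucleosome, had 233 and 233 TPM (233.2 ± 0.262 TPM), and Smarce1, which binds DNA through an HMG box, had 165 and 160 TPM (163 ± 3.42 TPM). The scaffold subunits Smarcc1 and Smarcc2 had 94.2 ± 0.559 and 91.9 ± 2.47 TPM. They were nearly equal in replicate 1, at 93.8 and 93.7 TPM, and Smarcc1 was higher in replicate 2, at 94.6 against 90.2 TPM. Smarcc1 held 50.6% of their sum.

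The sums of the families are set beside each other as a description. Members of a family need not replace one another in the same complex, since ARID subunits set its class and Phf10 is also found in PBAF. The PHF10 and DPF family summed to 268 ± 20.7 TPM, the actin-related pair to 236.8 ± 2.03 TPM, the ATPases to 195 ± 3.68 TPM, the SMARCD family to 195 ± 16.2 TPM, the SMARCC pair to 186 ± 1.91 TPM, the SS18 pair to 92.5 ± 1.47 TPM and the ARID family to 91.5 ± 4.67 TPM. The SS18 pair and the ARID family were the lowest of these 7 sums in the mean, and did not differ beyond their SD. Complexes use Actl6a outside BAF too, so its family sum is not a measure of BAF alone.

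In the SMARCD family, which links transcription factors to the complex, Smarcd1 had 110 and 100 TPM (105 ± 6.63 TPM). Smarcd3 had 75.3 and 62.2 TPM (68.7 ± 9.26 TPM) and Smarcd2 22.03 and 21.6 TPM (21.8 ± 0.332 TPM). Of the ARID subunits, which set the class of the complex, Arid1a had 43.8 ± 1.35 TPM, Arid2 35.5 ± 2.78 TPM and Arid1b 12.3 ± 0.544 TPM. Other subunits of the PBAF class were Pbrm1 at 106 ± 0.509 TPM and Brd7 at 63.6 and 77.9 TPM (70.7 ± 10.1 TPM). Subunits of the noncanonical class that lacks ARID proteins were Brd9 at 40.5 ± 1.01 TPM, Bicra at 8.89 ± 0.339 TPM and Bicral at 4.79 ± 0.205 TPM. The BCL7 subunits Bcl7a, Bcl7c and Bcl7b had 55.2 ± 3.05, 49.0 ± 4.68 and 35.2 ± 2.81 TPM.

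**Figure D4:**
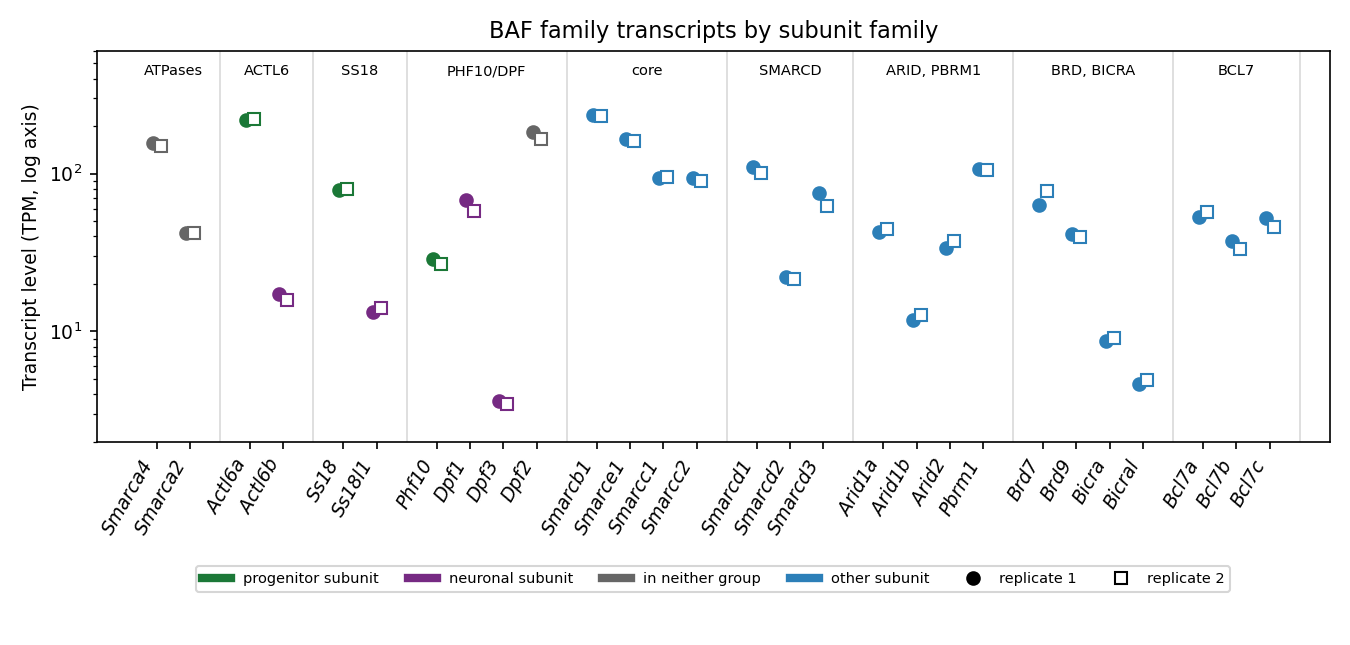
TPM of the 10 members and the 18 other BAF subunits on a log axis, arranged by family, with filled circles for replicate 1 and open squares for replicate 2, and colours for progenitor, neuronal, neither and other subunits. Smarcb1 stands highest at 233.2 TPM on average and Dpf3 lowest at 3.54 TPM, with Bicral next at 4.79 TPM.

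Markers of the cells that a forebrain could hold were measured in the same libraries. The 10 neural progenitor markers summed to 2117 and 2151 TPM, led by Vim (1013 ± 3.95 TPM), Fabp7 (488 ± 24.7 TPM) and Hes5 (249 ± 2.66 TPM). The 10 newborn neuron markers summed to 1140 and 1061 TPM, led by Tubb3 (473 ± 47.5 TPM), Map2 (134 ± 7.19 TPM) and Stmn2 (115.5 ± 0.474 TPM). All 20 of these markers reached 1 TPM in both libraries. The forebrain transcription factors Emx2 and Dlx2 had 61.5 ± 1.53 and 53.1 ± 0.643 TPM. RNA of other cells was also present. Erythroid markers summed to 12764 and 13820 TPM (highest Hbb-y, Hba-x and Hbb-bh1), and mesenchyme markers to 651 and 660 TPM (highest Col3a1, Col1a1 and Col1a2). Endothelial markers summed to 118 and 111 TPM (highest Egfl7, Kdr and Cldn5), and microglia markers to 45.1 and 39.7 TPM (highest C1qb, Tyrobp and C1qa). No marker of these lists was at 0 in both libraries. Many BAF subunits are expressed in these cell types too, and their part in the members' levels was not tested.

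Between the libraries, 0 of the 10 members differed by 1.5-fold or more in counts scaled for depth. Among all genes, 14.0% of those with 10 or more summed counts did, and 2.76% of those with 100 or more. Dpf3, at 1.35-fold, lay furthest apart. In counts scaled for depth, the median log2 ratio of replicate 1 over replicate 2 was 0.01 for the progenitor subunits and 0.19 for the neuronal subunits, and -0.0068 for all genes with 10 or more summed counts. From the deposited TPM, these medians were -0.02 for the progenitor subunits and 0.10 for the neuronal subunits. The scaled-count log2 ratio had an SD of 0.28 over all genes with 100 or more summed counts. Ss18l1, at -0.08, went opposite to the other neuronal subunits. Among the neuronal subunits only the counting interval of Dpf1 did not include 0. Among the markers, the scaled-count medians were 0.01 for neural progenitors, 0.07 for newborn neurons, -0.06 for erythroid cells, 0.0021 for mesenchyme, 0.13 for endothelium, -0.02 for microglia and 0.59 for the mostly undetected striated muscle list. Tubb3 had 506 TPM in replicate 1 and 439 TPM in replicate 2. By TPM, 9 of the 10 newborn neuron markers were higher in replicate 1, while Map2 had 129 and 140 TPM. No share of all genes is given for this count. In counts scaled for depth, Dcx, Elavl4 and Map2 were lower in replicate 1, with log2 ratios of -0.01, -0.05 and -0.11. Tubb3 itself leaned to replicate 1, with a scaled-count log2 ratio of 0.20, above the newborn neuron median of 0.07. No ratio to Map2, which leaned the other way, was taken. Per TPM of Tubb3, the only neuron marker used as a denominator, Dpf1 was nearly equal in the libraries, at 13.4 and 13.3%. The other neuronal subunits were each higher in replicate 2 on this scale. Actl6b was at 3.40 and 3.58%, Dpf3 at 0.715 and 0.788% and Ss18l1 at 2.63 and 3.20%. The part of any cell type in these differences between the libraries was not tested.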

How the data were processed

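Total RNA-seq was measured in 2 libraries of a single group. Per the labels, they are biological replicates from separate collections, extracted with the mirVana kit, spiked with control RNAs and made by a SMART-seq protocol. The notes deposited with the tables name mm10 and GENCODE M4. Which aligner and quantifier ran, and whether strand was used, is not given in the sources used here. Expected counts, as deposited, are estimates that share reads between transcripts, so many are fractional. The deposited TPM are scaled by length over all entries, of which spike-ins and other entries outside Ensembl genes held 13.0% and 12.7%. The deposited percent of each transcript within its gene was set beside shares computed from TPM. They differed by at most 0.104 percentage points.

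Gene and transcript names and structures were taken from GENCODE M21 (GRCm38) by identifier. Of 43346 Ensembl genes, 42462 (98.0%) matched, and 61 of 73 member transcripts had the same length in M21 and in the tables. The remaining transcripts belong to Smarca2 and Ss18, most of them to Smarca2. Expected counts were whole in both libraries, within 0.005, for 7 of the 10 members, and were rounded for intervals. Library ratios used TMM factors of edgeR 4.0.16 (1.00 and 0.997) in R 4.3.3 and a prior of 0.5 counts, with size factors of DESeq2 1.42.0 as an alternative. Intervals are exact binomial (scipy 1.17.1, 95%) and cover counting error only, since no molecular identifiers are described. No p-values were computed. Only the library ratios and their exact intervals were tested on simulated counts.

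The members, gene lists and comparisons were chosen with earlier results of these data known. The text names all members, every gene of the lists of other BAF subunits and of regulators of the exchange, the 3 highest of each marker list with Tubb3 and Vim, transcripts with at least 10% of a member's TPM, and the highest noncoding transcript of each member that has one. Emx2, Dlx2, Dcx, Elavl4, 1600012H06Rik and Mrpl47 were named after their values were seen. Alternatives were other scalings, pseudocounts, fold thresholds, transcript classes and leaving out each library.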

Additional observations from a re-analysis of the deposited data

How the results depend on the processing

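No ratio between subunits, and no difference of the group medians, changed direction under any alternative run. Leaving out each library gave log2 ratios of 3.66 to 3.82 for Actl6a over Actl6b, 2.50 to 2.55 for Ss18 over Ss18l1, -1.30 to -1.21 for Phf10 over Dpf1 and Dpf3, and 1.85 to 1.89 for Smarca4 over Smarca2. It gave median differences of 2.29 to 2.34 and 10 detected members each time. With expected counts not divided by length, these ratios were 4.20, 2.01, -0.83 and 3.65 in the same order. With protein-coding transcripts only, Phf10 over Dpf1 and Dpf3 was -2.06 and Smarca4 over Smarca2 was 2.65. With complete protein-coding transcripts only, chosen after seeing the data, they were -1.46 and 3.42. Smarca4 over Smarca2 was 1.79 from posterior mean TPM. The median difference was 2.39 with a pseudocount of 0.1 and 2.39 with 0.01, 2.27 as a difference of means, 2.88 with Dpf2 added to the progenitor group, 2.27 from posterior mean TPM and 2.46 with complete transcripts only. At the lower of the alternative folds between the libraries, for which no share of all genes is given, 1 member passed (Dpf3), against 0 at 1.5. With DESeq2 size factors the count was 0 as well. Transcript shares depended on the scale. Taken from expected counts in place of TPM, 10 of 21 shares were higher and 10 lower. On average Phf10-203 then held 53.4% in place of 27.5%, Dpf1-209 3.93% in place of 17.1% and Dpf3-202 14.9% in place of 37.3%. Beyond the lengths, transcripts and genes that the alternatives themselves change, the cause was not tested.

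Depth limits Dpf3 most, with 78 and 83 expected counts, and all transcript shares of Dpf3 with it. No paired analysis was possible because there is a single group. With 2 libraries, the SD itself is poorly known.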
